A study of Mus musculus with 2 samples.

Results

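The genes of the mitochondrial respiratory chain were examined in single-cell transcriptomes of mouse embryoid bodies (clumps of embryonic stem cells grown so that they start to differentiate). The members were all gene symbols of the deposited matrices that start with Nduf, Uqcr, Cox4 to Cox8 or Atp5, the 4 succinate dehydrogenase genes Sdha, Sdhb, Sdhc and Sdhd, and every gene of the mitochondrial genome (symbols with mt-). This gave 110 of the 33696 listed genes: 86 nuclear genes for subunits of the complexes, 8 nuclear genes for complex I assembly factors, 3 copies or pseudogenes and 13 mitochondrial-genome genes. The embryoid bodies came from J1 embryonic stem cells, a male line, and had been kept for 2 days with DMSO, the solvent control, or for 2 days with dTAG13, a degrader compound that links a mutant FKBP tag, and whatever protein bears it, to a ubiquitin ligase. Which protein was tagged is not stated in the labels, and the title of the series mentions Tex10, a subunit of a nuclear complex with a role in ribosome maturation. Each group was 1 library of 1 line, so nothing here has a replicate check and cells were not used as replicates in any test. Intervals are at 95% throughout and reflect counting error alone.

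The DMSO matrix held 17958 barcodes, and 17878 passed the limits of 500 or more detected genes and no more than 10% mitochondrial UMIs (a UMI stands for 1 tagged transcript molecule). The dTAG13 matrix held 11644 barcodes, and 11588 passed. Median depth per kept cell was 6014 UMIs with DMSO and 7072.5 UMIs with dTAG13, the median number of detected genes was 1966 and 2251, and the totals were 117189816 and 91808969 UMIs. The 2 barcode lists share 63 kept barcodes, 0.352% of the DMSO cells and 0.544% of the dTAG13 cells. At the mitochondrial limit, 11 DMSO cells and 1 dTAG13 cell lay between 9% and 10%, and 4 and 0 between 10% and 11%. At the gene limit, 22 DMSO cells and 9 dTAG13 cells lay within 50 genes above it, and 15 and 14 within 50 below it. Both libraries carried the transcripts of pluripotent cells. Pou5f1 was at 612 and 516 CPM (UMIs per 1000000 of the library) and Sox2 at 291 and 334 CPM with DMSO and dTAG13. The 8 pluripotent markers summed to 9791 and 8674 CPM, a ratio of 0.886. Of these, 6 were lower and 2 were higher in the dTAG13 library, with a median log2 ratio of -0.25. Markers of other cell types were low. Trophoblast markers summed to 68.0 and 174 CPM (8 genes), neural markers to 61.9 and 59.9 CPM (4 genes) and fibroblast markers to 28.4 and 86.4 CPM (5 genes, Tagln making up most of it, with Col3a1 at 0 UMIs). Mesoderm and primitive endoderm markers stayed at or under 3.54 CPM summed in both libraries, and those of 2-cell-like cells summed to 1.97 and 4.87 CPM. The part of such cells, and of the lower sum of pluripotent markers, in the results was not tested.

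The respiratory chain sits in the inner mitochondrial membrane. Complex I takes electrons from NADH and complex II from succinate, complex III passes them to cytochrome c, complex IV hands them to oxygen, and complex V, the ATP synthase, uses the proton gradient that complexes I, III and IV build. The mitochondrial genome encodes core subunits of complexes I, III, IV and V, made from long polycistronic transcripts, while complex II and all other subunits come from nuclear genes. Each complex other than II therefore needs transcripts of both genomes. Pluripotent stem cells are known for drawing much of their ATP from glycolysis.

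Transcripts of both genomes took a smaller share of the dTAG13 library. The 13 mitochondrial-genome genes held 2.53% of all UMIs with DMSO and 2.04% with dTAG13, a ratio of 0.803 (0.802 to 0.805). The 86 nuclear subunit genes held 3.63% and 3.21%, a ratio of 0.882 (0.881 to 0.884). Of the 86, 81 reached 5 CPM in 1 or both libraries, and 62 of these were lower in the dTAG13 library, where 39.7% of all 8817 genes measured by this limit were lower. At least 20% lower were 19 of the 81, against 13.8% of all measured genes, and at least 25% higher (the same fold upwards) were 4 of the 81, against 28.2%. At 1.5-fold, 3 were lower (5.4% of all measured genes) and 2 were higher (14.2%). Among the 3 is Cox7b2, which reached 5 CPM in the DMSO library alone. Their median log2 ratio of CPM was -0.16, and that of all other measured genes was 0.10. The nuclear subunits also lay close together, with the middle 50% of their log2 ratios between -0.28 and -0.02, against -0.15 and 0.37 for the other genes.

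**Figure D1:**
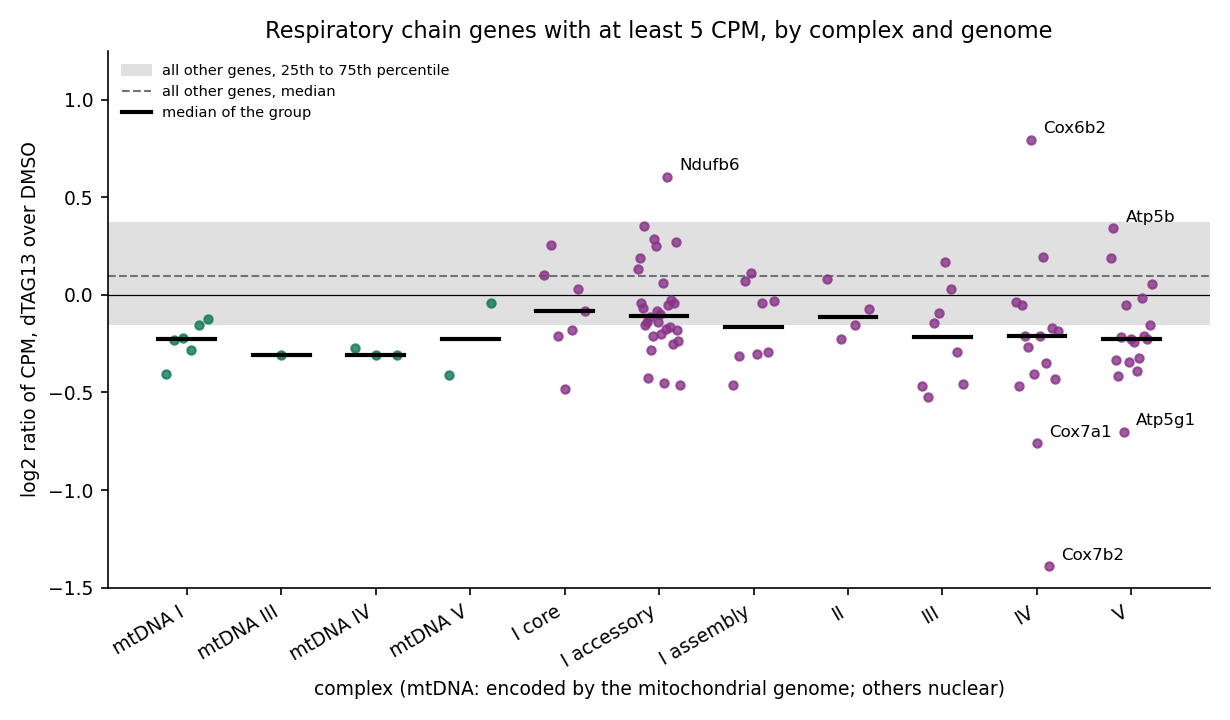
Each point is 1 gene that reached 5 CPM in either library, placed by complex and genome (x axis) and by its log2 ratio of CPM between the dTAG13 and DMSO libraries (y axis); black bars are group medians, the grey band and dashed line give the middle 50% and the median of all other genes. All 12 mitochondrial-genome points lie below 0, and the nuclear groups have medians between -0.08 and -0.23.

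In the mitochondrial genome, all 12 genes with at least 5 CPM were lower in the dTAG13 library, with log2 ratios between -0.41 and -0.04. The complex V subunit gene mt-Atp6 was at 3932 (DMSO) and 2964 CPM (dTAG13), a ratio of 0.754 (0.750 to 0.757). The complex I gene mt-Nd1 was at 3389 and 2562 CPM, a ratio of 0.756 (0.752 to 0.760). The 3 catalytic-core genes of complex IV lay within a narrow range: mt-Co1 at 2972 and 2458 CPM, mt-Co2 at 3938 and 3185 CPM, and mt-Co3 at 2648 and 2138 CPM. The cytochrome b gene mt-Cytb, the complex III subunit of this genome, was at 3026 and 2443 CPM, a ratio of 0.807. The other complex I genes differed less, with ratios of 0.823 for mt-Nd4, 0.851 for mt-Nd2, 0.859 for mt-Nd3, 0.900 for mt-Nd4l and 0.918 for mt-Nd5. The smallest difference was that of mt-Atp8, at 70.7 and 68.8 CPM, whose ratio of 0.972 has an interval of 0.941 to 1.005. This gene and mt-Nd4l each share a transcript with a downstream neighbour, mt-Atp6 and mt-Nd4, so reads cannot always be told apart between the genes of such a pair. The only gene encoded on the other strand, mt-Nd6, did not reach 5 CPM, with 350 UMIs in the DMSO library and 200 in the dTAG13 library (2.99 and 2.18 CPM). By complex, summed mitochondrial-genome UMIs had ratios of 0.811 for complex I, 0.807 for III, 0.814 for IV and 0.758 for V. The cell filter limits this genome's UMIs directly; without any mitochondrial limit the log2 ratio of the summed genes was -0.32, as it was with the limit.

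Among nuclear genes the complexes differed more than in the mitochondrial genome. Summed UMIs of complex III had a ratio of 0.799 (0.795 to 0.803), of complex IV 0.863 (0.861 to 0.865), of complex V 0.872 (0.869 to 0.874), of complex II 0.907 (0.893 to 0.921) and of complex I 0.952 (0.949 to 0.955). Complex III was the lowest and complex I the nearest to 1, whereas complex V was the lowest among the mitochondrial-genome sums.

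Complex I, the largest of the complexes, has 7 nuclear core subunits that hold the flavin and the iron-sulfur clusters. Of these, Ndufs7 was the lowest, at 245 (DMSO) and 175 CPM (dTAG13), a ratio of 0.716 (0.702 to 0.730). Ndufs3 and Ndufs8 had ratios of 0.864 and 0.883, and Ndufv2 one of 0.944. Ndufs1 had a ratio of 1.07 and Ndufv1 one of 1.02 with an interval of 0.994 to 1.05. The core subunits named here therefore lay on both sides of 1.

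The 30 accessory subunits, which surround and stabilise the core, were also split, with 22 lower and 8 higher in the dTAG13 library (1 of the 8, Ndufb3, was lower when libraries were scaled by the median of ratios). Ndufb6 was the highest, at 222 (DMSO) and 338 CPM (dTAG13), a ratio of 1.52 (1.497 to 1.547), and it was the only complex I gene past 1.5-fold. Ndufa13 was at 378 and 482 CPM (ratio 1.28), and Ndufa9 at 68.7 and 83.8 CPM (1.22). The mitochondrial acyl carrier protein gene Ndufab1 had a ratio of 1.19. At the low end were Ndufv3 at 175 and 127 CPM (0.727), Ndufb4 at 153 and 112 CPM (0.733) and Ndufa5 at 264 and 197 CPM (0.745). The accessory gene with most UMIs, Ndufa7, was at 666 and 547 CPM (0.821). The 8 assembly factors, which build the complex but are not part of it, had a median log2 ratio of -0.16, with 6 lower. Ndufaf1 had a ratio of 0.727, Ndufaf2 of 0.805 and Ndufaf5 of 0.809, while Ndufaf8 and Ndufaf4 had ratios of 0.980 and 1.08. Ndufaf3 had a ratio of 1.05, which turned to just under 1 when libraries were scaled by the median of ratios. Of the copies, Ndufb11b was at 31.6 and 40.0 CPM and the pseudogene Cox5b-ps at 10.4 and 9.87 CPM, and Ndufb4b stayed under 5 CPM. The sources used here do not describe how reads of near-identical copies were counted, so these values and those of Ndufb11, Cox5b and Ndufb4 are uncertain.

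The 4 genes of complex II, which is also the succinate dehydrogenase of the citric acid cycle, differed little. The flavoprotein gene Sdha was at 40.7 (DMSO) and 43.1 CPM (dTAG13), the iron-sulfur gene Sdhb at 152 and 130 CPM, and the membrane anchor genes Sdhc and Sdhd at 78.0 and 70.0 CPM and at 58.8 and 55.9 CPM. The ratios ran from 0.855 for Sdhb to 1.06 for Sdha, and none of the 4 was 20% lower or 25% higher.

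Complex III genes differed in their ratios, without a clean split by the kind of subunit. The small subunits Uqcr11, Uqcr10 and Uqcrq had ratios of 0.697 (0.688 to 0.706), 0.723 (0.715 to 0.730) and 0.730 (0.721 to 0.739). Uqcr10 had most UMIs, at 865 (DMSO) and 625 CPM (dTAG13), and Uqcr11 was at 611 and 426 CPM. The hinge protein gene Uqcrh and the gene Uqcrb had ratios of 0.818 and 0.904. The large core proteins and the Rieske iron-sulfur protein lay near or above 1: Uqcrc1 at 0.938, Uqcrfs1 at 1.02 and Uqcrc2, at 114 and 128 CPM, at 1.12. The cytochrome c1 gene Cyc1, which the symbol rule leaves out, had a ratio of 0.763 (0.750 to 0.775), in the range of the low small subunits.

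In complex IV, 13 of the 15 genes with at least 5 CPM were lower in the dTAG13 library. Cox5a was at 1194 (DMSO) and 865 CPM (dTAG13), a ratio of 0.724 (0.718 to 0.731). Cox8a, at 1480 and 1097 CPM, had a ratio of 0.741, Cox6c one of 0.755 and Cox7b one of 0.784. The gene with most UMIs, Cox4i1, which encodes a regulatory subunit, was at 2323 and 2268 CPM, a ratio of 0.976 (0.971 to 0.982), and Cox5b had one of 0.964. Ndufa4, named for complex I but a subunit of complex IV, was at 1105 and 973 CPM, and Cox7c at 1795 and 1595 CPM. Cox6a1 and Cox7a2 had ratios of 0.865 each.

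The lowest ratios in complex IV belonged to tissue-restricted isoforms at low levels. Cox7b2 had 595 UMIs with DMSO and 178 with dTAG13 (5.08 and 1.94 CPM), a ratio of 0.382 (0.321 to 0.452). It passed the 5 CPM limit through the DMSO library alone, and only just, so the limit itself favours a low ratio here. Cox7a1, the heart and skeletal muscle isoform, was at 29.1 and 17.2 CPM, a ratio of 0.591 (0.557 to 0.628), in libraries whose striated muscle markers summed to only 4.48 and 5.32 CPM. At the other end was Cox6b2, the isoform known from testis, at 92.0 and 160 CPM, a ratio of 1.73 (1.69 to 1.78). The supercomplex factor gene Cox7a2l was at 288 and 330 CPM (1.15). Of the isoforms below 5 CPM, Cox6a2 had 19 and 9 UMIs, Cox8b had 1 and 0, Cox8c had 108 and 57, the hypoxia-linked Cox4i2 had 66 and 74, and Ndufa4l2, also linked to hypoxia, had 50 and 155 UMIs, a ratio of 3.96 (2.86 to 5.56).

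The make-up of the families with a second isoform above 1% of UMIs differed between the libraries. Cox6b2 gave 10.1% (9.88 to 10.2) of the UMIs of the Cox6b pair with DMSO and 19.0% (18.7 to 19.2) with dTAG13. Because Cox6b1 went from 822 to 682 CPM while Cox6b2 was higher, the pair's sum was at 915 and 842 CPM, a ratio of 0.921. In the Cox7a family, Cox7a2l had 26.1% of UMIs with DMSO and 32.1% with dTAG13, and Cox7a1 had 2.64% and 1.67%. The families Cox4, Cox6a, Cox7b and Cox8 were nearly all 1 isoform in both libraries: Cox4i1, Cox6a1, Cox7b and Cox8a each held at least 99.4% of their family's UMIs.

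Complex V has a soluble catalytic head and a membrane rotor. In the head, the catalytic beta subunit gene Atp5b was the highest member of the complex, at 472 (DMSO) and 598 CPM (dTAG13), a ratio of 1.27 (1.253 to 1.283). The alpha subunit gene Atp5a1 was at 323 and 368 CPM (1.14). The other head subunits were lower, with ratios of 0.792 for the gamma gene Atp5c1, 0.749 for the delta gene Atp5d and 0.862 for the epsilon gene Atp5e. Of the membrane and stalk subunits, 11 of 12 were lower, among them Atp5j2 at 862 and 658 CPM (0.763) and Atp5k at 248 and 198 CPM (0.799). Atp5pb, of the peripheral stalk, had a ratio of 1.04 that fell below 1 under that other scaling, and Atp5l, at 912 and 903 CPM, one of 0.990.

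The rotor ring of complex V is built from subunit c, which 3 nuclear genes encode; their proteins carry different import sequences and give the same mature subunit. Atp5g1 had the lowest ratio of the complex, at 1096 (DMSO) and 675 CPM (dTAG13), a ratio of 0.616 (0.610 to 0.622). Atp5g2 was at 882 and 850 CPM, a ratio of 0.963 (0.954 to 0.972), and Atp5g3 at 263 and 207 CPM, a ratio of 0.788 (0.774 to 0.803). Atp5g1 was thus the most counted of the 3 with DMSO, at 48.9% (48.7 to 49.1) of the family's UMIs, and Atp5g2 with dTAG13, at 49.1% (48.8 to 49.3). The family's sum was at 2241 and 1732 CPM. The promoters of these 3 genes, shown because the genes encode 1 mature protein but had unlike ratios, are given 5' to 3' on the gene's own strand, from 250 bases before to 50 after the start, from RefSeq on GRCm38.p6 (all 3 genes are on the minus strand: Atp5g1 at chr11:96075582-96075881, Atp5g2 at chr15:102670998-102671297 and Atp5g3 at chr2:73911277-73911576). Capitals mark matches to GCGCATGCG, the core of the site bound by NRF1, a transcription factor of many respiratory chain genes.
Atp5g1: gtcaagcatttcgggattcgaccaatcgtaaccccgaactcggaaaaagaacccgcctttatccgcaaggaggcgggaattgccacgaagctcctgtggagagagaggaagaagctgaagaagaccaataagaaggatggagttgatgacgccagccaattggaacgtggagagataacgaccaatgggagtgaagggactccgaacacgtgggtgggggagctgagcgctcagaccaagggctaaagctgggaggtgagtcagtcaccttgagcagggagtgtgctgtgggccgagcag
Atp5g2: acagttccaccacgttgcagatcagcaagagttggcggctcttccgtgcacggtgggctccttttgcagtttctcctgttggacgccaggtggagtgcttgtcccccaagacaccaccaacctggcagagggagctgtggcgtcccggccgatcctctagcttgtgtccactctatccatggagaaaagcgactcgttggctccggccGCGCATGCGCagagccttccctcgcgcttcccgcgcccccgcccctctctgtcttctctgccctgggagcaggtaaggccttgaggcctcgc
Atp5g3: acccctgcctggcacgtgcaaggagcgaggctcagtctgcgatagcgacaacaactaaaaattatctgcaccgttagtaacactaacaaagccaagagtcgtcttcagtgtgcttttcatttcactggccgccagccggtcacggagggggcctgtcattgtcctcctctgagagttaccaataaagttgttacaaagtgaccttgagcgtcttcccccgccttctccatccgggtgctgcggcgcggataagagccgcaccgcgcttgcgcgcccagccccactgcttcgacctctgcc
Only the Atp5g2 window held this motif. It matched on both strands in overlapping letters, starting 42 bases before the start, and no other motif searched was in the window.

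Promoters were matched by symbol for 70 of the 86 nuclear subunit genes. The NRF1 motif was found on either strand in 8 of them (11.4%) and in 1.95% of the 27025 genes with a promoter in the table: Ndufa8, Ndufa11, Uqcrc1, Uqcr11, Cox6a1, Atp5g2, Atp5k and Atp5l. The YY1 motif AAGATGGCG was found in 7 of the 70 (10%, against 1.64%), in Ndufs7, Ndufa9, Ndufc1, Ndufs4, Ndufs6, Atp5j and Atp5j2, and the ETS motif CCGGAAGTG in 2 (2.86%, against 2.25%), in Ndufs3 and Uqcrh. Among measured members, the median log2 ratio was -0.15 for the 8 with the NRF1 motif and -0.18 for the 61 without. It was -0.24 for the 7 with the YY1 motif and -0.17 for the 62 without. A relation of motifs to ratios was not tested. A match is a description of letters in this window and not a bound site.

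**Figure D2:**
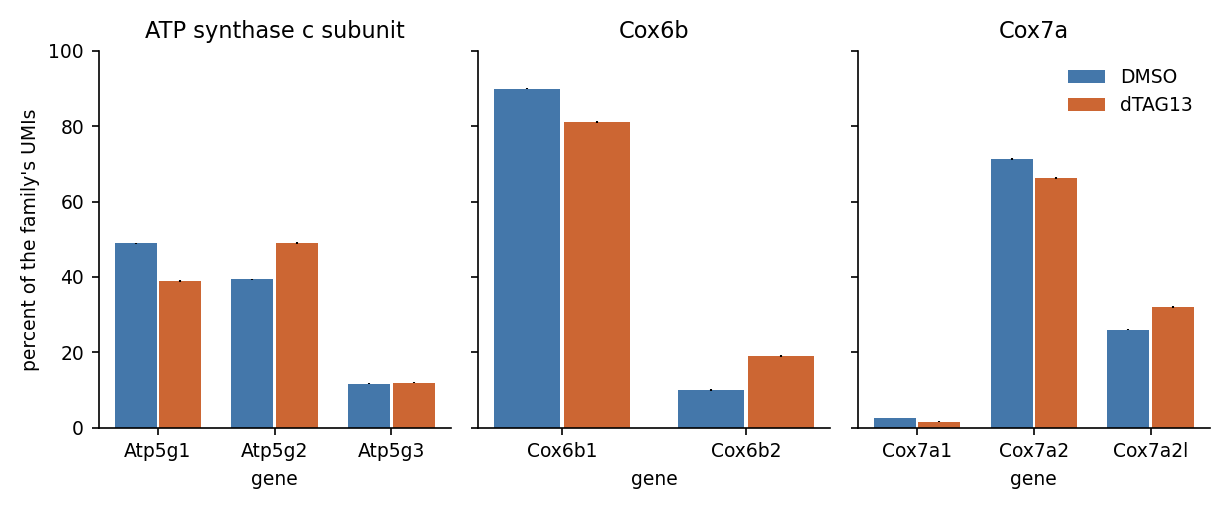
Bars give the percent of a family's UMIs (y axis, from 0) held by each isoform gene (x axis) in the DMSO and dTAG13 libraries, with exact binomial intervals that are barely wider than the line. Atp5g1 goes from 48.9% to 39.0% and Cox6b2 from 10.1% to 19.0%.

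The nuclear members were ordered by the length of their coding sequence, a split chosen after their values were seen. The 21 subunits with coding sequences under 300 nucleotides had a median log2 ratio of -0.29, with 20 lower in the dTAG13 library. The 30 from 300 to under 500 had a median of -0.11 and the 18 from 500 to under 1000 one of -0.16. The 11 of 1000 nucleotides and more had a median of 0.17, and only Ndufv3 and Uqcrc1 of these were lower. The 9 that were higher include the alpha and beta subunits of complex V, Sdha, Ndufs1 and Uqcrc2. All other measured genes ran in the same direction, with medians of -0.14, -0.02, 0.05 and 0.14 in the same 4 ranges. Of these other genes, 68.5% were lower under 300 nucleotides and 34.2% at 1000 and more, against 95.2% and 18.2% of the subunits. Across the 80 members with a coding length in GENCODE M21, Spearman's rho between length and log2 ratio was 0.446, and across 8436 other genes it was 0.152; genes of 1 library pair are not independent, and this is a description. The short members were also those with more UMIs, with a median of 540 CPM under 300 nucleotides and of 121 CPM at 1000 and more. By level, the nuclear subunits had medians of -0.08 from 50 to under 200 CPM, -0.15 from 200 to under 500 and -0.24 from 500 to under 1000, and other genes at the same levels had medians of 0.02, -0.11 and -0.18. The gap between members and other genes was thus narrower in these 3 level ranges than over all genes, but not at the highest level. At 1000 CPM and more, the 6 members had a median of -0.29 and the 130 other genes, many of them for ribosomal proteins, one of 0.02. From 5 to under 50 CPM, the 2 members had a median of -0.34 and the 5923 other genes one of 0.14. These 2 were Cox7a1, at a log2 ratio of -0.76, and Sdha, at 0.08. Their median thus lies between 1 lower and 1 higher gene, and no gap can be read from it.

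**Figure D3:**
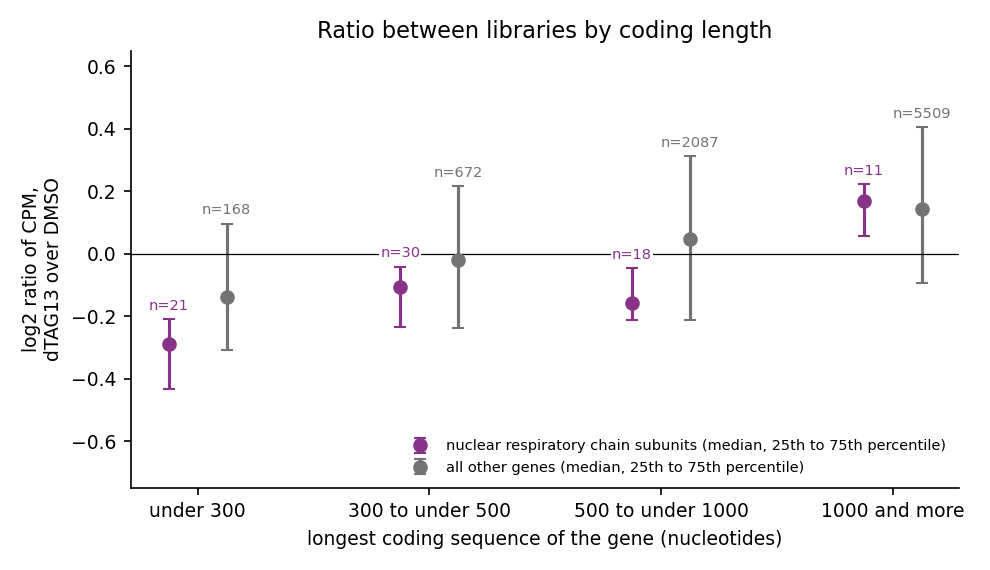
Points give the median and bars the middle 50% of the log2 ratio of CPM between the libraries (y axis) for genes grouped by their longest coding sequence (x axis, nucleotides), for nuclear respiratory chain subunits and for all other genes with at least 5 CPM. Subunits under 300 nucleotides sit at -0.29 and those of 1000 and more at 0.17.

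The difference was seen across the cells of the libraries and not in a small group. Each cell was thinned at random to 4000 UMIs, which left out 1970 DMSO cells and 868 dTAG13 cells that were shallower. The 15908 thinned DMSO cells held a median of 99 mitochondrial-genome UMIs (10th to 90th percentile 76 to 127), and the 10720 dTAG13 cells held 79 (54 to 109). For the nuclear subunits the medians were 146 (122 to 171) and 129 (106 to 150). The ranges overlap widely, yet 84.3% of dTAG13 cells lay below the DMSO median of nuclear UMIs and 80.7% below that of mitochondrial-genome UMIs. Without thinning, the median shares per cell were 2.48% and 1.97% for the mitochondrial genome and 3.64% and 3.20% for the nuclear subunits. By complex, thinned medians were 38 and 36 UMIs for nuclear complex I, 1 and 1 for complex II, 15 and 12 for complex III, 54 and 46 for complex IV and 38 and 33 for complex V. UMIs of a barcode can include free RNA of the library; its share was not measured here.

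**Figure D4:**
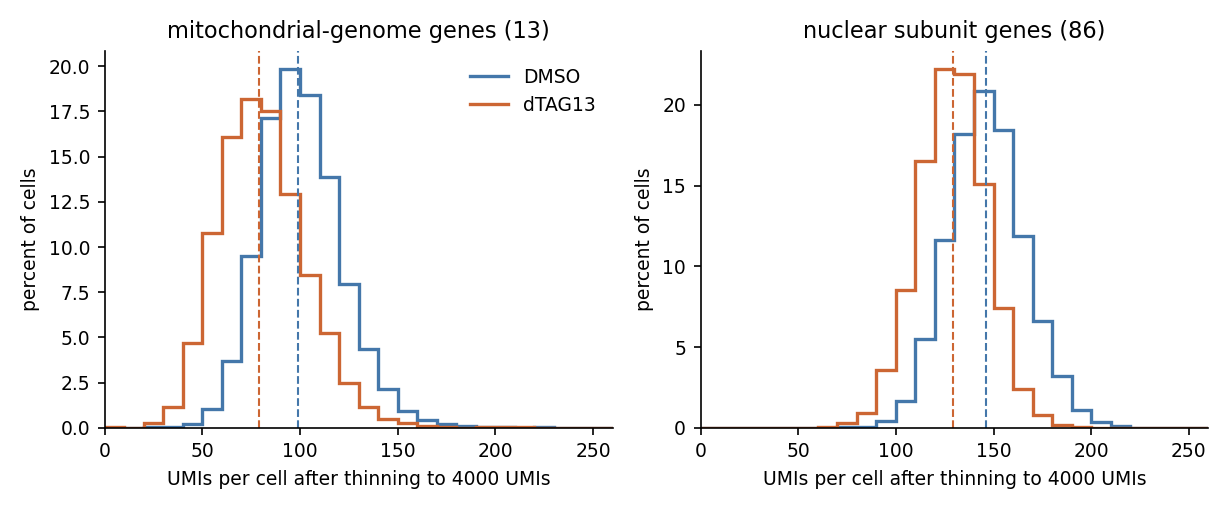
Lines give the percent of cells (y axis) by the number of UMIs after thinning each cell to 4000 UMIs (x axis, bins of 10), for the 13 mitochondrial-genome genes and the 86 nuclear subunit genes; dashed lines mark the medians. The dTAG13 curves lie to the left of the DMSO curves, with medians of 79 against 99 and 129 against 146.

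Across thinned cells of a library, Pearson's r between mitochondrial-genome and nuclear subunit UMIs was 0.0843 in the DMSO library and 0.145 in the dTAG13 library. Among the nuclear complexes I, III, IV and V it was between 0.133 and 0.261 over all pairs in both libraries, and for pairs with complex II, which has few UMIs, between 0.0049 and 0.0712. Between the mitochondrial genome and complex IV it was 0.138 and 0.180. These counts share a fixed total of 4000 UMIs per cell and are sparse, so the values are descriptions only. The variance of mitochondrial-genome UMIs was 4.41 times their mean with DMSO and 6.10 times with dTAG13, and that of nuclear subunit UMIs 2.51 and 2.32 times, so cells of 1 library differed more in the former.

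The libraries differ in depth per cell, and the comparison was repeated within ranges of total UMIs. The mitochondrial-genome ratio was 0.770 in cells with 2000 to 4000 UMIs, 0.796 with 4000 to 8000, 0.796 with 8000 to 16000 and 0.793 with 16000 and more. The nuclear ratio was 0.830, 0.875, 0.899 and 0.916 in the same ranges. Among the shallowest cells, under 2000 UMIs (251 and 83 cells), the ratios were 0.857 and 0.808. Both genomes were lower in the dTAG13 library in each of the 5 ranges.

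Cells with keratin transcripts and cells with p53 target transcripts are more frequent in the dTAG13 library, and the members were followed over both. In cells with 0 Krt8 and Krt18 UMIs after thinning (15036 DMSO and 9686 dTAG13 cells), the ratio was 0.807 for the mitochondrial genome and 0.882 for the nuclear subunits, against 0.803 and 0.882 in all cells. In cells with 3 to 7 keratin UMIs (37 and 176 cells), the mitochondrial genome was at 25236 (DMSO) and 17200 CPM (dTAG13).

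The p53 list comprised 20 genes, such as Mdm2 and Cdkn1a, that summed to 514 CPM with DMSO and 2034 CPM with dTAG13. In the DMSO library, nuclear subunits were at 37019 CPM in the 10839 cells with 0 to 2 p53 target UMIs and at 33566 CPM in the 320 cells with 8 to 15, a ratio of 0.907 (0.898 to 0.915). In the dTAG13 library they were at 33616 CPM in 587 such low cells and at 31674 CPM in 5079 such high cells, a ratio of 0.942 (0.935 to 0.949). Complex III had ratios of 0.863 and 0.867 and complex V of 0.866 and 0.907 in the DMSO and dTAG13 libraries. Of the 78 nuclear subunit genes with at least 50 CPM, 62 were lower in the high cells of the DMSO library, where 51.9% of 2732 genes at that level were, and 56 in those of the dTAG13 library, where 55.1% were. At least 20% lower were 12 and 5 of the 78, against 10.9% of genes in each library. These ranges are cut from a count per cell and are not cell types.

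Single members were ordered by the p53 target count in different ways. Atp5g1 was at 1155, 980 and 777 CPM in DMSO cells with 0 to 2, 3 to 7 and 8 to 15 p53 target UMIs, and at 861, 739, 610 and 456 CPM in dTAG13 cells with 0 to 2, 3 to 7, 8 to 15 and 16 or more. Its sister gene Atp5g2 was at 882, 869 and 842 CPM and at 810, 838, 846 and 829 CPM in the same ranges, without such an order. Cox6b2 went the other way, at 79.4, 121 and 166 CPM with DMSO, and at 129, 162, 170 and 169 CPM with dTAG13. Ndufb6 was at 220, 230 and 238 CPM with DMSO and at 291, 309, 354 and 396 CPM with dTAG13. Between the libraries, the nuclear ratio was 0.908 (0.902 to 0.915) in cells with 0 to 2 p53 target UMIs and 0.944 (0.934 to 0.953) with 8 to 15. The mitochondrial-genome ratio was 0.872 (0.864 to 0.8795) and 0.757 (0.749 to 0.766) in the same ranges. The nuclear ratios within these ranges were nearer to 1 than over all cells, and the mitochondrial-genome ratio was so with 0 to 2 but not with 8 to 15. A range holds unlike parts of the libraries: 8 to 15 covers 320 thinned DMSO cells and 5079 thinned dTAG13 cells. The part of p53 target levels in the differences was not tested.

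**Figure D5:**
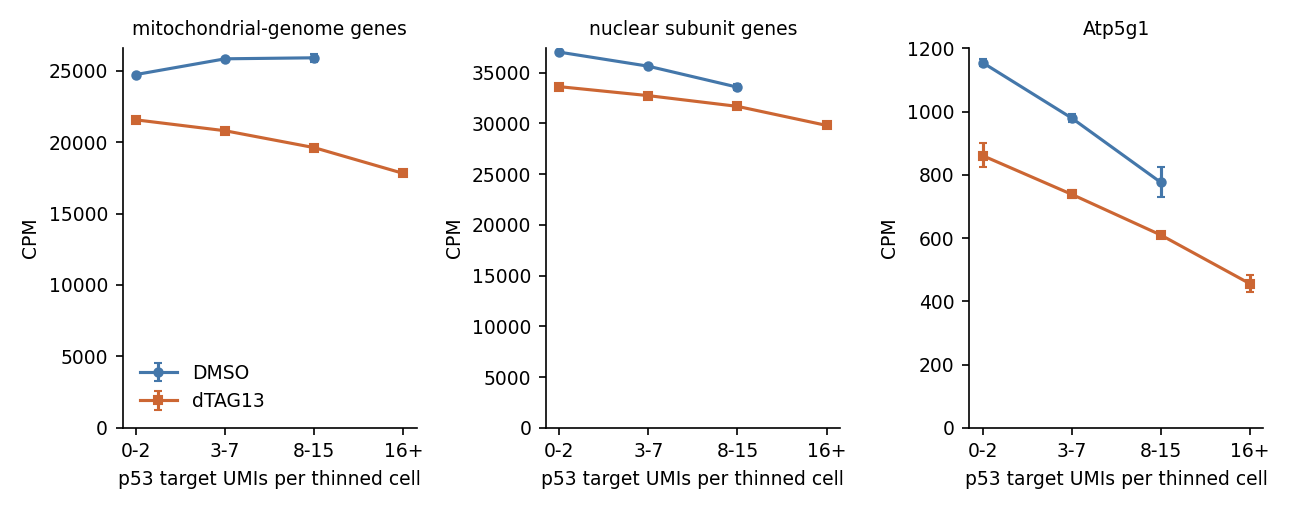
Points give CPM (y axis, from 0) summed over cells grouped by p53 target UMIs after thinning (x axis), for mitochondrial-genome genes, nuclear subunit genes and Atp5g1, in ranges with at least 50 cells; bars are exact intervals for counting error. Nuclear subunit and Atp5g1 levels go down with the p53 target count in both libraries, from 1155 to 777 CPM for Atp5g1 with DMSO.

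Other genes of the pathway, on lists fixed apart from the members, did not share one direction. The electron carrier gene Cycs (cytochrome c) was at 510 (DMSO) and 459 CPM (dTAG13), and Cyc1, the cytochrome c1 subunit of complex III that the symbol rule leaves out, at 329 and 251 CPM. With Cyc1, the complex III assembly list had 4 of 9 measured genes at least 20% lower and 2 at least 25% higher; Uqcc2 was at 273 and 158 CPM (0.577), Uqcc6 had a ratio of 0.702 and Ttc19 one of 1.46. Of 23 complex IV assembly genes 2 were at least 20% lower and 4 higher, the highest being Sco2, a copper chaperone gene known as a p53 target, at 21.2 and 39.0 CPM (1.84), followed by Cox20 (1.43) and Surf1 (1.38). Complex V assembly genes had 3 of 5 at least 25% higher, with Atpaf1 at 1.498 and Tmem70 at 1.36. Further complex I assembly genes had 2 of 9 higher and 1 lower, with Timmdc1 at 9.64 and 23.9 CPM, Acad9 at a ratio of 1.58 and Ecsit at 0.696. In complex II assembly, 1 of 4 was higher, Sdhaf1, at 25.3 and 40.4 CPM. The electron carrier and coenzyme Q list had 7 of 17 higher and 2 lower, with the dehydrogenase gene Etfdh at 7.82 and 20.2 CPM, Coq5 at a ratio of 1.40 and Coq10b at 1.39. In the order given, the shares at least 20% lower were 44.4%, 8.70%, 0%, 11.1%, 0% and 11.8%, against 13.8% of all measured genes. The shares at least 25% higher were 22.2%, 17.4%, 60%, 22.2%, 25% and 41.2%, against 28.2% of all measured genes. Several lists were thus near or under the share of all genes. These assembly genes have low counts next to the subunits.

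The genes that copy and transcribe the mitochondrial genome differed little in sum. Of 26 measured, 3 (11.5%) were at least 20% lower and 4 (15.4%) at least 25% higher, against 13.8% and 28.2% of all measured genes, and the median log2 ratio was 0.06. Tfam, which packs and activates this genome, was at 104 (DMSO) and 100.3 CPM (dTAG13), a ratio of 0.960 (0.935 to 0.987), and the polymerase gene Polrmt at 4.78 and 5.62 CPM. Hsd17b10 and Prorp, subunits of the enzyme that cuts tRNAs out of its transcripts, had ratios of 0.734 and 0.743, its other subunit gene Trmt10c and the tRNA nuclease gene Elac2 had ratios of 1.05 each, and the nuclease gene Mgme1 one of 1.31. Of 12 measured regulators, 2 were at least 20% lower and 2 at least 25% higher (16.7% each): Myc at 7.37 and 3.22 CPM, Esrrb, also on the pluripotent marker list, at a ratio of 0.693, Esrra at 1.40 and Nrf1 at 20.1 and 26.2 CPM. The coactivator gene Ppargc1a had 1 UMI in the DMSO library and 0 in the dTAG13 library, and Ppargc1b stayed under 5 CPM, at 2.93 and 0.969 CPM.

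Beyond the chain, mitochondrial ribosome genes had a median log2 ratio of -0.11 over 78 genes, with 12 (15.4%) at least 20% lower and 3 (3.85%) at least 25% higher, against 13.8% and 28.2% of all measured genes. Mrpl12 was at 240 and 143 CPM and Mrpl14 and Mrps36 had ratios of 0.661 and 0.676. Protein import and cristae genes had a median of -0.18 over 30, with 7 (23.3%) at least 20% lower and 1 (3.33%) at least 25% higher, among them Tomm5 at 303 and 205 CPM, Chchd10 at a ratio of 0.755 and Apoo at 1.36. The citric acid cycle list had a median of 0.00 over 20 genes, with Idh2 at 77.9 and 45.4 CPM as its only member at least 20% lower and Dlst, at a ratio of 1.27, as its only one higher. Mitochondrial chaperones and proteases were split, with 3 of 12 (25%) at least 25% higher and 1 (8.33%) at least 20% lower: Dnaja3 at a ratio of 1.77, Clpx at 1.28, Hspa9 at 1.27 and Hspd1 at 0.785. Of the carrier and antioxidant list 11 of 12 had a ratio below 1 (91.7%, against 39.7% of all measured genes) and 2 were at least 20% lower, the superoxide dismutase genes Sod2 at 167 and 121 CPM and Sod1 at 192 and 150 CPM. The ATP carrier gene Slc25a5 had a ratio of 0.826. Glycolysis enzymes, given for comparison from a list written after the files were seen, had a median of -0.10 over 15, and cytosolic ribosomal protein genes one of 0.03 over 86. By summed UMIs, the ratios were 0.870 for glycolysis, 0.873 for chaperones and proteases, 0.862 for the carrier and antioxidant list and 1.02 for cytosolic ribosomal proteins. They were 0.904 for mitochondrial ribosome genes, 0.901 for import and cristae and 0.952 for the citric acid cycle. A summed ratio as low as the 0.882 of the nuclear subunits was thus not particular to the chain.

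Several measures of the libraries differ along with the members. The nuclear-retained RNA Malat1 was at 2747 (DMSO) and 4600 CPM (dTAG13), and Neat1 at 7.65 and 27.4 CPM, while Kcnq1ot1 was at 222 and 215 CPM. Of 5 measured dissociation genes, 3 (60%) were at least 25% higher, against 28.2% of all measured genes. The other 2 (40%) had ratios below 1, against 39.7%. Summed, the list had a ratio of 1.30. Jun was at 15.2 and 74.9 CPM and Ier2 at 174 and 158 CPM. The part of these measures in the differences of the members was not tested. Tex10 transcripts, which do not report on a protein degraded by dTAG13, were at 81.3 and 64.7 CPM.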

How the data were processed

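Single-cell RNA was measured with the 10x Chromium 3' kit, per the labels' protocols, in 1 library each of DMSO and dTAG13 embryoid bodies. The authors deposited UMI counts (whole numbers, 1 value per gene and barcode) from Cell Ranger, whose version was 8.0.1 per the file headers. Seurat 5.0.1, R 4.3.2 and the build mm10 are listed without a role in the submitters' processing notes; the annotation, the barcode filter and the treatment of reads that match several genes are not given in the sources used here. Intronic reads may or may not be counted, which bears on nuclear RNA such as Malat1.

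Barcodes below 500 detected genes or above 10% mitochondrial UMIs were dropped, and doublets were neither called nor removed. Counts were summed over kept cells and divided by the library total (CPM), with symbols that have 2 identifiers (26) summed. Ratios are dTAG13 over DMSO with exact conditional binomial intervals, and shares have Clopper-Pearson intervals, all at 95% and covering counting error only. A gene was called measured from 5 CPM upwards in either library. Cells were thinned without replacement to 4000 UMIs. Interval and thinning code was tested on simulated data (python 3.11.15, numpy 2.4.6, scipy 1.17.1, pandas 2.3.3).

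With 1 library per group no test was made. The members and lists were chosen with earlier results of these data known. Named genes are all mt- genes, Sdha to Sdhd, the isoform families, and per complex the most abundant gene and the 3 highest and 3 lowest ratios, and up to 3 genes per further list with at least 10 CPM; genes outside this rule, and the glycolysis list, coding lengths (GENCODE M21) and promoter motifs, were chosen after values were seen. Longer forms of the NRF1 and YY1 motifs were searched first and found in fewer promoters. There were 11 other settings. Some values are not reported here; members without a printed value enter the counts and sums.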

Additional observations from a re-analysis of the deposited data

Results flagged for a closer look

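The summed nuclear subunits differed in opposite directions between 2 ranges of depth in the libraries. In cells with 16000 and more UMIs their share of UMIs was 0.956 times that in cells with 2000 to 4000 UMIs in the DMSO library, and 1.05 times in the dTAG13 library. For complex IV the same ratios were 0.918 and 1.02. The direction was not shared by all complexes: complex I had 0.937 and 0.985, complex II 1.13 and 1.06, complex III 0.991 and 1.13, and complex V 1.01 and 1.16. It also depends on the ranges set against each other, since DMSO cells under 2000 UMIs were at 33633 CPM, below the 35352 CPM of those with 16000 and more. Mitochondrial-genome levels in cells with 8 to 15 p53 target UMIs were 1.05 times those in cells with 0 to 2 in the DMSO library and 0.91 times in the dTAG13 library. Each of these is a comparison within 1 library per group, and the difference between the libraries was not tested.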

How the results depend on the processing

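Both genomes' summed and median log2 ratios stayed below 0 under each of the 11 other settings. Scaling by the median of ratios gave -0.39 for summed mitochondrial-genome genes, -0.25 for summed nuclear subunits, -0.35 and -0.24 for the medians, and 2 nuclear genes at least 25% higher. It also put Atp5pb at -0.0181, Ndufb3 at -0.0136 and Ndufaf3 at -0.0024. With this scaling the median log2 ratio of all measured genes went from 0.09 to 0.02. The nuclear median minus that of all measured genes was -0.256 as reported and -0.254 with this scaling. Of all measured genes, 48.1% had a ratio below 1 and 17.9% were at least 20% lower, against 39.7% and 13.8% as reported. Nuclear subunits with a ratio below 1 went from 62 to 66 of 81, which includes genes not named here. The summed log2 ratios of the mitochondrial genome and the nuclear subunits were -0.32 and -0.19 with totals without mitochondrial UMIs, -0.31 and -0.18 without ribosomal protein UMIs as well, -0.32 and -0.19 after thinning, -0.32 and -0.18 in cells with 4000 to 12000 UMIs, and -0.33 and -0.19 with each cell weighted equally. All lie outside the counting intervals of the reported sums. The cause was not tested. No paired analysis was possible because each group is 1 library, and no replicate could be left out. Depth limits the isoforms under 5 CPM, mt-Nd6 and complex II per cell, which had a median of 1 UMI.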
